A study of Mus musculus with 82 samples.

Results

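The adult globins and 4 genes of red cell gas exchange and surface were followed through mouse hematopoietic stem cells (HSCs) and early progenitors. The 8 genes were Hbb-bs, Hbb-bt, Hba-a1, Hba-a2, Car1, Car2, Ermap and Slc4a1. They were taken by symbol from the 55376 genes of the raw count tables, and each symbol was found. Hemoglobin carries oxygen as a tetramer of alpha and beta chains around heme. Carbonic anhydrases interconvert carbon dioxide and bicarbonate, and the anion exchanger of the red cell membrane moves that bicarbonate across it. These genes are switched on along the erythroid path from stem cell to megakaryocyte-erythroid progenitor to erythroblast.

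The study compared HSCs of young C57BL/6J males of 3 to 4 months (YHSC) with those of old males of 24 to 26 months (OHSC). It also gave old HSCs lentiviral short hairpin RNAs aimed at the shorter transcript variant of the gene Btaf1. Young libraries came from pooled mice and old libraries from single mice, so pooling and age cannot be told apart in the spread of values. The young mice were bought from The Jackson Laboratory and the old ones came from the NIA Aged Rodent Colony. Source and age therefore cannot be told apart in any comparison of OHSC with YHSC. HSCs were sorted as Lin- Sca1+ c-Kit+ CD34- Flk2- CD150+ cells, and the lineage antibodies included Ter119, the erythroid surface marker. For the cultured libraries, old HSCs were transduced with a scrambled control (shControl) or with shRNA1 or shRNA2, and GFP+ cells were sorted after 3.5 days. For the transplanted libraries, the transduced CD45.2+ cells were given to lethally irradiated female CD45.1 recipients. GFP+ HSCs sorted as CD48- CD150+ were recovered from pools of 2 to 4 recipients at least 4 months later. Common myeloid (CMP), granulocyte-macrophage (GMP) and megakaryocyte-erythroid (MEP) progenitors came from young mice in a single labelled batch. The shRNA and progenitor libraries carried the genotype label WT, and no engineered allele was named for the fresh HSCs.

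There were 30 mRNA-seq libraries, 4 of YHSC, 8 of OHSC and 2 of every other group. The fresh HSC libraries held 20475764 to 24654742 reads on genes, and the others 33177394 to 42737054. Levels are given as read counts scaled to the reads on genes of each library (counts per 1000000 reads, CPM). Groups made with another kit, extraction or sequencer are set side by side without a test, because these cannot be told apart from the cell type. The labels and the study's methods name different kits for some mRNA-seq groups, so which kit made which group is in doubt. The summed CPM of the HSC marker list was 4807 to 4874 in YHSC and 4367 to 4836 in OHSC. Markers of other cells were not at 0 in the sorted HSCs. The summed granulocyte markers were 130.3, 134, 341 and 242 CPM in YHSC 1 to 4 and 297 to 429.9 in OHSC. Of these sums, the gene Prtn3 alone gave 120.4 to 136 CPM in YHSC and 289.9 to 336 CPM in OHSC. The summed B cell markers were 82.8 to 152 in YHSC and 33.7 to 41.4 in OHSC, and the macrophage markers were 42.6 to 62.1 in YHSC and 28.6 to 139.9 in OHSC. YHSC 3, YHSC 4 and OHSC 2 carried the granule gene Ngp at 45.9, 28.2 and 24.7 CPM, against at most 1.57 in the other fresh HSC libraries. In bulk samples, more cells of one type and more RNA per cell cannot be told apart. The gene-level count of Btaf1, which does not tell the shorter variant from the canonical transcript, was lower in all 4 hairpin libraries than in both controls, in culture (110 to 119 against 137 and 141 CPM) and after transplantation (118 to 139 against 161 and 165 CPM).

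The 4 globin genes lie in 2 clusters. On mouse build GRCm38.p6, Hbb-bs spans chr7:103826534-103828096 and Hbb-bt chr7:103812524-103813996, both on the minus strand. Hba-a1 spans chr11:32283511-32284465 and Hba-a2 chr11:32296489-32297298, both on the plus strand. Car1 (chr3:14766216-14808368, minus) and Car2 (chr3:14886273-14900770, plus) lie on the same chromosome with Car3 between them, Ermap spans chr4:119175457-119190011 (minus) and Slc4a1 chr11:102348824-102366203 (minus). No member shared exon bases with another gene. RefSeq promoter sequences of 300 bases around the start were found for 5 of the 8 genes and not for Car1, Car2 and Slc4a1. They are shown for both beta copies, of which 1 was called with age, for 1 alpha copy, since the alpha promoters are nearly the same, and for Ermap, and the capitals mark the motifs searched on both strands.

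The promoters below run 5′ to 3′ on the strand of each gene.
Hbb-bs: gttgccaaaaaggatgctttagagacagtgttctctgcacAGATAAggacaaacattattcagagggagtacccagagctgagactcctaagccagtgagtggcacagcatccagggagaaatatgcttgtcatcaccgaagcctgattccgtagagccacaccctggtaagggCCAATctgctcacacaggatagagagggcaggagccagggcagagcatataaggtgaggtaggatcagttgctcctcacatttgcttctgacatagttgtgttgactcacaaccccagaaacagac
Hbb-bt: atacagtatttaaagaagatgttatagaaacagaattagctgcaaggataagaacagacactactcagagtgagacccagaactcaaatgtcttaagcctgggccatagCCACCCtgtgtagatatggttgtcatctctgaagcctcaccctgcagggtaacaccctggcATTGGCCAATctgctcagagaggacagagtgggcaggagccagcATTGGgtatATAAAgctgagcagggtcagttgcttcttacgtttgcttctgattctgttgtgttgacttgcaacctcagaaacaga
Hba-a1: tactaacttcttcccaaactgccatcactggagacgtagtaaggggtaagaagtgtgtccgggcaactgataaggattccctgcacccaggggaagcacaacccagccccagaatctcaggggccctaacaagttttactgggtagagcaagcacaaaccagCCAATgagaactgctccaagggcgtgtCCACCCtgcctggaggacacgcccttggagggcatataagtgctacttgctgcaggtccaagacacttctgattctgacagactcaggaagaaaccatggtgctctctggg
Ermap: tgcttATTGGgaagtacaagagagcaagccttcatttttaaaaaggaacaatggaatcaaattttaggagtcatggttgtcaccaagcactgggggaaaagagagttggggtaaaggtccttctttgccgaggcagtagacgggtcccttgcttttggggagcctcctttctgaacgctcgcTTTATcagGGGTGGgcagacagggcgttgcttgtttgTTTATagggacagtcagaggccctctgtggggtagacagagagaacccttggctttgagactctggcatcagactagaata

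The motif of GATA factors was searched as AGATAA. For the box read by Klf factors, only the letters CCACCC were searched. The other motifs were CCAAT, a common promoter box, and ATAAA, which is like the box of core promoters. AGATAA and ATAAA can overlap by 4 letters. Over 32851 promoters of this length, 11.2% held AGATAA, 31.5% CCACCC, 37.4% CCAAT and 40.0% ATAAA. The Hbb-bs promoter (chr7:103827879-103828178) held 1 AGATAA and 1 CCAAT. The Hbb-bt promoter (chr7:103813874-103814173) held 1 CCACCC, 3 CCAAT and 1 ATAAA. The Hba-a1 promoter (chr11:32283422-32283721) held 1 CCACCC and 1 CCAAT, and it shared an unbroken run of 297 of its 300 bases with that of Hba-a2. The longest run shared by the promoters of Hbb-bs and Hbb-bt was 14 bases. The Ermap promoter (chr4:119189946-119190245) held 1 CCACCC, 1 CCAAT and 2 ATAAA. A match is a string of letters only. Variants of these strings were not searched, so a sequence without a match may still hold a form of the motif.

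The transcripts of the copies are also alike, which bears on every count of a single globin copy. Of the 50-base windows of the Hbb-bs transcript, 65.8% (381 of 579) occurred unchanged in Hbb-bt, and of those of Hba-a1, 67.5% (439 of 650) occurred in Hba-a2. The authors' counting could have split or dropped reads from these stretches, so counts of a single copy are uncertain and summed copies are given beside them. Car1 and Car2 shared 0 such windows.

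With age, 5 of the 8 genes changed, and in opposite directions. Both alpha globins and the beta globin Hbb-bs were higher in OHSC, while the carbonic anhydrase Car1 and the erythroid surface protein gene Ermap were lower. The other beta globin, Hbb-bt, the second carbonic anhydrase Car2 and the anion exchanger Slc4a1 did not pass the test. A gene was called when it moved more than 1.5-fold with an adjusted p under 0.05 in edgeR's quasi-likelihood test over 21522 genes. Of all tested genes, 4.69% were called higher, 2.83% lower and 7.52% in either direction.

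Hbb-bs, a chain of adult hemoglobin, was at 2.51, 3.91, 1.57 and 4.39 CPM in the 4 YHSC libraries. In the 8 OHSC libraries it was at 20.5, 10.8, 32.6, 42.0, 13.5, 44.1, 22.5 and 95.2 CPM. The lowest old library stood above the highest young one, and the old libraries spread widely among themselves, with a coefficient of variation of 77.4% against 41.7%. The log2 fold change was 3.54 (SE 0.73, 11.6-fold, adjusted p = 0.00531). Hbb-bt, the second adult beta chain, was at 9.41, 11.1, 11.8 and 10.7 CPM in YHSC and at 4.87 to 21.7 CPM (median 11.3) in OHSC. These ranges overlapped, and the log2 difference was 0.15 (SE 0.33, adjusted p = 0.825).

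Hba-a1, an adult alpha chain, was at 2.22, 2.05, 3.08 and 2.45 CPM in YHSC and at 4.83 to 53.4 CPM (median 14.5) in OHSC. Its log2 fold change was 2.98 (SE 0.69, 7.91-fold, adjusted p = 0.0106). Hba-a2, the second alpha chain gene, was at 0.126, 0.586, 0.552 and 0.995 CPM in YHSC and at 1.76 to 12.2 CPM (median 5.64) in OHSC. The change was 3.48 (SE 0.74, 11.2-fold, adjusted p = 0.00627). With the copies of a pair summed, the alpha pair rose by 3.09 (SE 0.68, adjusted p = 0.00775) and the beta pair by 1.8 (SE 0.53, adjusted p = 0.0352), both on the log2 scale. For the alpha genes too, old and young ranges did not overlap.

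Car1 was at 143, 118, 133 and 169.5 CPM in YHSC and at 0.316 to 18.9 CPM (median 6.69) in OHSC. The OHSC library with the most Car1 thus held far less than the YHSC library with the least. Its log2 fold change was -4.09 (SE 0.58, 17-fold lower, adjusted p = 0.000402). Ermap was at 22.0, 22.5, 16.1 and 29.6 CPM in YHSC and at 0.442 to 5.14 CPM (median 1.69) in OHSC, a change of -3.36 (SE 0.42, 10.2-fold lower, adjusted p = 0.000168).

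Car2 was by far the most abundant of the 8 genes in HSCs, at 1459.8, 1375, 1425 and 1327 CPM in YHSC and 1203 to 1550.2 CPM (median 1372) in OHSC. The old libraries lay on both sides of the young ones, with a log2 difference of 0.01 (SE 0.06, adjusted p = 0.914). Slc4a1, the anion exchanger, was barely read in either group, at 0.335 to 1.24 CPM in YHSC and 0.177 to 1.22 CPM in OHSC. No difference was detectable at that level (-0.05, SE 0.46, adjusted p = 0.966).

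**Figure D1:**
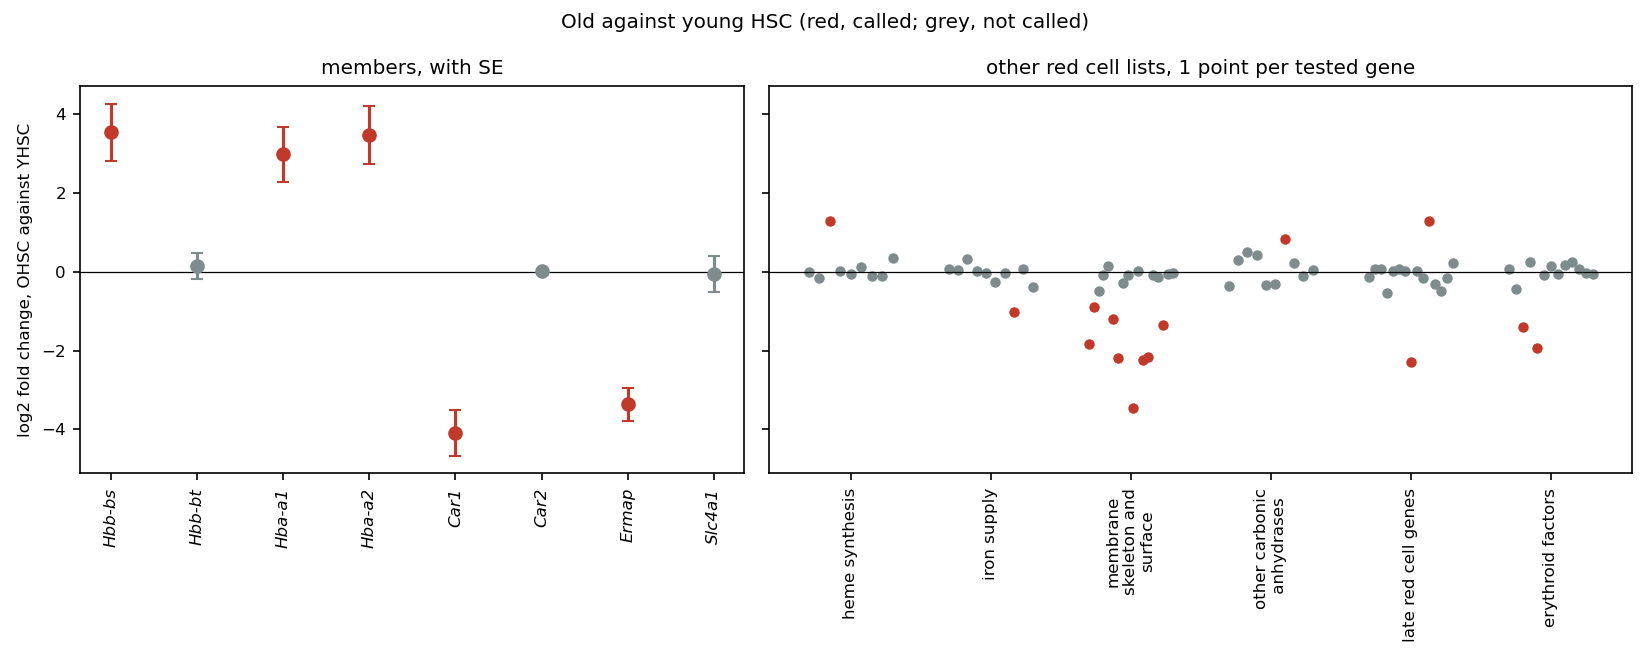
Log2 fold changes in OHSC against YHSC from edgeR, with SE for the 8 genes on the left and with a point for each tested gene of the other red cell lists on the right, called genes in red and others in grey. Hbb-bs, Hba-a1 and Hba-a2 lie at 2.98 to 3.54, Car1 and Ermap at -4.09 and -3.36, and the 8 called membrane genes all lie below 0.

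The CPM ranges of the 4 YHSC and 8 OHSC libraries did not overlap for these 5 called genes, 3 with OHSC higher and 2 with OHSC lower. Over all tested genes, 15.1% had ranges that did not overlap, 7.07% with OHSC higher and 8.02% with OHSC lower. All 5 calls were kept when any 1 library was left out. With a term for the replicate number added to the edgeR fit, Hbb-bs missed the threshold (3.04, adjusted p = 0.0551). An alternative chosen after seeing the data left out together YHSC 3, YHSC 4 and OHSC 2, the 3 with the most Ngp, and OHSC 3, the one with the highest macrophage sum. Then 2 of the 8 were called, Car1 (-3.84, adjusted p = 0.0421) and Ermap (-3.21, adjusted p = 0.0234). Hbb-bs (3.69, adjusted p = 0.0962), Hba-a1 (3.38, adjusted p = 0.109) and Hba-a2 (4.36, adjusted p = 0.0684) had larger log2 fold changes but missed the threshold in that fit of 8 libraries. Of the young libraries, that fit kept only YHSC 1 and YHSC 2.

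Because Hbb-bs rose and Hbb-bt did not pass the test, the makeup of the beta globin reads differed between ages. Hbb-bs made up 22.0% ± 7.64 (SD, n = 4) of the reads of both beta copies in YHSC and 72.0% ± 8.37 (SD, n = 8) in OHSC. The young shares ran from 11.7% to 29.2% and the old ones from 53.6% to 81.4%. The difference of 50.0 percentage points had a two-sided exact permutation p of 0.00202 over 495 splits, the smallest this design can give. The pattern was noticed and tested in the same libraries. The Hba-a1 share of the alpha reads was 82.1% ± 10.1 in YHSC (n = 4) and 74.6% ± 4.49 in OHSC (n = 8), a difference of -7.52 points (two-sided exact permutation p = 0.0929).

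**Figure D2:**
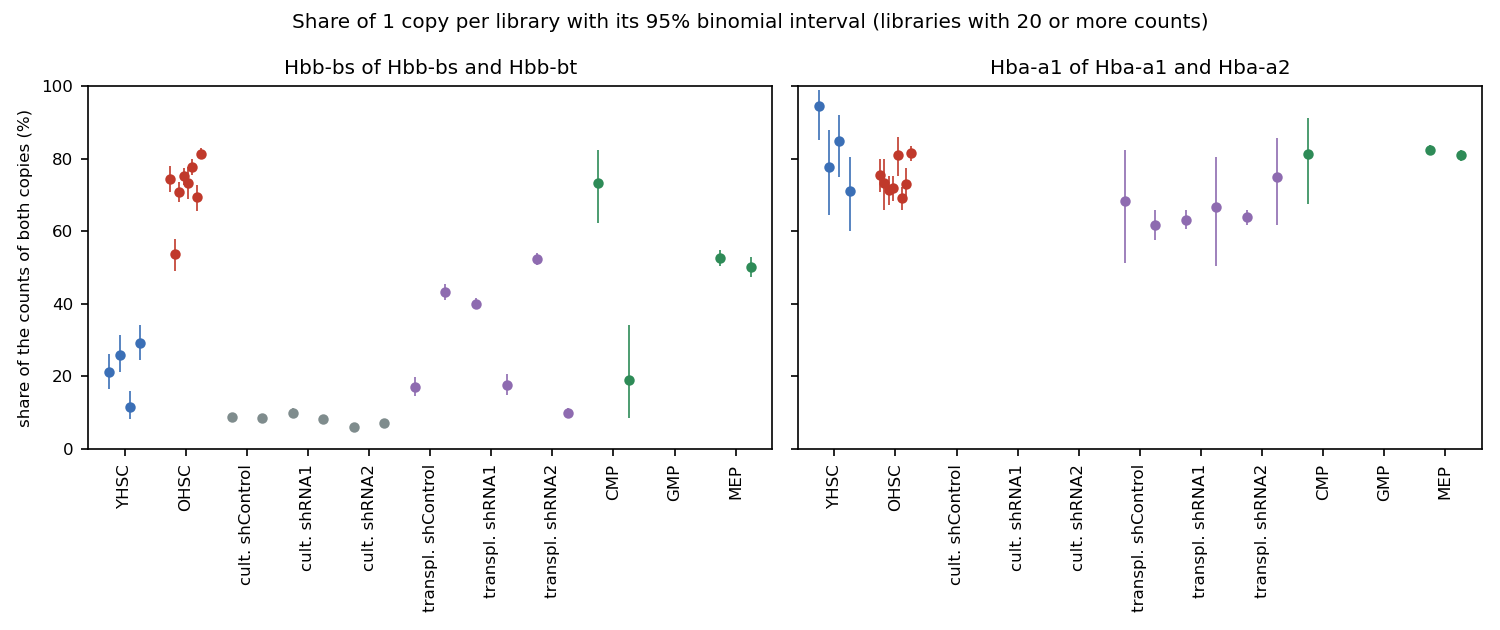
Share of Hbb-bs in the reads of both beta copies (left) and of Hba-a1 in those of both alpha copies (right), in percent, with a point and a 95% binomial interval, which covers counting error only, for each library with enough reads. OHSC libraries sit at 53.6% to 81.4% for Hbb-bs, above the YHSC libraries at 11.7% to 29.2% and the cultured libraries at 6.09% to 9.93%, while the MEP libraries sit at 50.1% and 52.6%.

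Other genes of the pathway were counted by list. Of 9 heme synthesis genes, 1 rose with age and the rest did not pass. The gene that rose was Alas2, the erythroid enzyme of the first step, from 1.08 to 1.75 CPM in YHSC to 1.76 to 6.65 CPM in OHSC (log2 fold change 1.28, adjusted p = 0.0127). Of 18 genes of the membrane skeleton and surface, none rose and 8 fell, with a median log2 fold change of -0.38 against -0.01 over all genes tested. Kel, a blood group protease, fell by 3.47 and Rhag, a channel of the Rh complex, by 2.25 on the log2 scale. Of 10 iron genes, 1 was lower, the ferrireductase gene Steap3 (-1.02). Of 13 erythroid transcription factors and receptors, Klf1 (-1.93) and Gata1 (-1.41) fell and 11 did not pass. Of 15 tested late red cell genes, Tent5c rose (1.3) and Pklr, the red cell pyruvate kinase, fell (-2.3). Of 10 other carbonic anhydrases tested, only the mitochondrial Car5b was called, higher (0.82). The 9 other globins were in the tables and none reached the level needed for a test. The embryonic globins Hbb-y, Hbb-bh1, Hbb-bh2 and Hba-x were at most at 0.287 CPM in any of the 30 libraries.

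Marker lists of other cells moved as follows in the same test, and their part in the globin result was not tested. Of 7 tested megakaryocyte genes 4 rose, with Itgb3 (2.25), Itga2b (1.24) and Vwf (1.2) leading, and 1 fell. Of 7 B cell genes 6 fell, among them Cd79a (-4.71) and Ms4a1 (-4.5). Of 8 tested granulocyte genes, Prtn3 was called higher (1.32) and Mpo lower (-3.25). The median log2 fold change of this list was -2.02, against -0.01 over all genes tested. The Mpo value rests on YHSC 3, at 29.1 CPM, since the other young libraries (0.497 to 0.83 CPM) overlapped the old ones (0.443 to 1.52 CPM). None of the 7 macrophage genes was called, and of 10 HSC markers, Slamf1, the gene of CD150, rose (0.84). The sum of the 4 adult globins was 14.3 to 18.5 CPM in YHSC and 26.7 to 182 CPM in OHSC.

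By a rule set for likeness, Pearson's r of log2 CPM over the 12 fresh HSC libraries among 21514 genes, the profiles closest to the globin sum were Uba7 (0.966), Alas2 (0.941), Plk2 (0.939), Apol7e (0.923) and Rgs18 (0.905). The closest to the sum of Car1 and Ermap were Kel (0.979), Glis2 (0.972), Cldn13 (0.971), Lhfpl2 (0.96) and Add2 (0.957). These 12 libraries share the age contrast, so the values describe likeness only.

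Chromatin around the 8 genes was read by ATAC-seq in 4 YHSC and 4 OHSC libraries (15427933 to 26260337 reads in regions each). Regions were taken within 10000 bases of a gene and up to 60000 bases upstream of the embryonic gene of each globin cluster. Of 50 such regions, 42 passed the level filter and were tested. Called regions moved more than 1.5-fold with an adjusted p under 0.01 in edgeR, which 10.1% of the 89245 tested regions met in the direction of more accessibility in OHSC, 2.9% in the other and 13.0% in either. Of the 42, 4 were called, all more accessible in OHSC, and 2 of these flank Hbb-bs. Set against that 10.1%, the count is no more than the background gives, and it is no result about these genes as a group.

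The middle 300 bases of both Hbb-bs regions are shown as the called regions nearest to a globin gene. They run on the plus strand of GRCm38.p6, with the motifs in capitals.
region 40: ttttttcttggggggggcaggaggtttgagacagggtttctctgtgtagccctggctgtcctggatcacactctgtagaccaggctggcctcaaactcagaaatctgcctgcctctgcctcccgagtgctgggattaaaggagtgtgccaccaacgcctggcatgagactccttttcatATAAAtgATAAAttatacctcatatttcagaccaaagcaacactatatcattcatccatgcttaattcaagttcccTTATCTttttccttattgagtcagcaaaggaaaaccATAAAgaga
region 41: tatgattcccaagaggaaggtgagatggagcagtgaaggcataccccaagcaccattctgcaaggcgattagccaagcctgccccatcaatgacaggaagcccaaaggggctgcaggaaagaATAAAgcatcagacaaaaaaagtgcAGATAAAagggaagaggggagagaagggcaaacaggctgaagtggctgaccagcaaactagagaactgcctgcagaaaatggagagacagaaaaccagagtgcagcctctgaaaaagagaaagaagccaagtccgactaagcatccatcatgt

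Region 40 (chr7:103823204-103824445; bases shown chr7:103823675-103823974) lies downstream of Hbb-bs, 4272 bases from its start. It held 3.27, 3.23, 3.07 and 3.82 CPM in YHSC and 7.44, 7.55, 3.52 and 4.35 CPM in OHSC. The 2 age groups overlapped here, with OHSC 7 inside the young range (log2 fold change 0.79, SE 0.19, 1.72-fold, adjusted p = 0.00111). The bases shown held 1 AGATAA, on the minus strand, and 3 ATAAA. Region 41 (chr7:103829507-103830018; bases shown chr7:103829613-103829912) lies 1666 bases upstream of the Hbb-bs start. It was at 1.91, 2.02, 2.34 and 1.31 CPM in YHSC and at 2.58, 3.11, 2.9 and 3.1 CPM in OHSC, with no overlap (0.66, SE 0.2, 1.58-fold, adjusted p = 0.0092). Its bases held 1 AGATAA that overlaps 1 of 2 ATAAA.

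Region 30 lies 23243 bases past the Car2 start, and was at 2.31, 2.43, 2.38 and 3.39 CPM in YHSC and at 4.91, 5.46, 4.02 and 2.64 CPM in OHSC (0.71, SE 0.19, 1.64-fold, adjusted p = 0.00245). OHSC 8 stayed within the young range. Region 31, 23824 bases past the Ermap start, was at 2.63, 2.96, 3.07 and 2.82 CPM in YHSC and at 5.16, 4.21, 3.4 and 4.31 CPM in OHSC (0.59, SE 0.17, 1.51-fold, adjusted p = 0.00464). All 4 of its old values were above the young ones. These calls were near the thresholds. Leaving out 1 library gave between 1 and 4 called regions, with 1 called without YHSC 1 and 2 called without OHSC 5 or OHSC 8. Region 40 was called in each of these fits, while regions 30, 31 and 41 each lost the call in some of them.

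The region over the Car2 start was the most open of those tested, at 83.3 ± 2.96 CPM in YHSC and 68.6 ± 3.82 CPM in OHSC (SD, n = 4 each). It differed by -0.25 on the log2 scale (SE 0.05, adjusted p = 1.13e-05), below the 1.5-fold limit. No deposited region lay over the start of any of the other 7 genes. Upstream of the embryonic gene Hbb-y, region 44 (-8118 bases from its start) was at 17.7 CPM in YHSC and 20.6 CPM in OHSC (adjusted p = 0.0128).

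**Figure D3:**
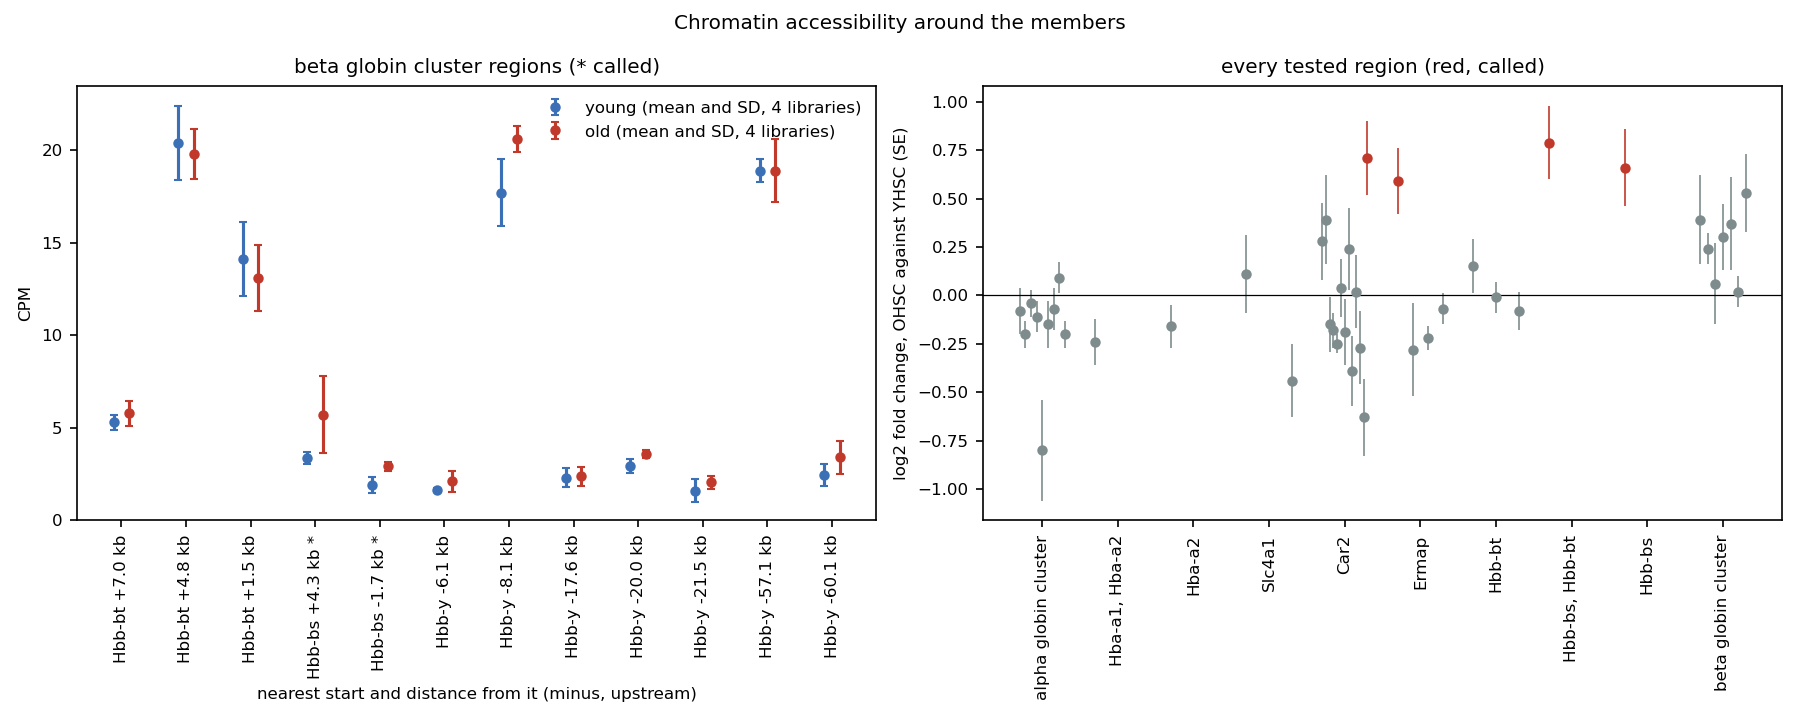
Left, mean ATAC-seq CPM with SD (n = 4 each) of YHSC in blue and OHSC in red for the tested regions of the beta globin cluster, named by the nearest start and the distance from it, and right, log2 fold changes with SE of all 42 tested regions by locus, called ones in red. Regions 40 and 41 beside Hbb-bs average 5.71 and 2.92 CPM in OHSC against 3.35 and 1.9 CPM in YHSC, and the 4 called regions all lie above 0.

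Histone H3K27ac, a mark of active promoters and enhancers, was deposited as normalized signal for 2 YHSC and 2 OHSC libraries, without a test. A peak was called by a ratio of means above 1.5 with every old library at least 1.2 times every young one, or the reverse. Of 39557 peaks, 9.11% were called higher in OHSC, 2.27% lower and 11.4% in either direction. By gene name, a member gene had 1 peak, over the Car2 start, at 6.03 and 5.74 in YHSC and 5.99 and 5.57 in OHSC (ratio 0.982). By position, 17 peaks lay in the windows, of which 2 were called higher, 1 lower and 14 not. The peak over the Hbb-bt start, named Hbb-b2 in the deposited table, was higher, at 3.9 and 2.41 in YHSC and 5.2 and 4.73 in OHSC (ratio 1.57). The peak over the Hbb-bs start, named Hbb-b1, was at 1.3 and 1.34 in YHSC and 1.18 and 2.35 in OHSC (ratio 1.34), and its old libraries lay on both sides of the young. The second peak called higher (chr7:103807706-103808289) lay by Hbb-bt, at 2.38 and 2.52 in YHSC and 3.89 and 3.6 in OHSC (ratio 1.53). The peak called lower lay within Nprl3 upstream of the alpha globins (chr11:32247351-32247901), at 2.06 and 2.15 against 1.19 and 1.61 (ratio 0.666).

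H3K4me3 and H3K27me3 signal was read in 2 young libraries. H3K4me3, a mark of active starts, was at 30.8 and 33.3 over the Car2 start, higher than 99.4% of 33199 peaks, and no peak lay over the starts of the adult globins, Car1, Ermap or Slc4a1. H3K27me3, the mark of Polycomb repression, covered Slc4a1 in a domain of 57000 bases (0.737 and 0.783), the alpha globin cluster in one of 59000 bases (0.566 and 0.576) and Ermap in one of 17000 bases (0.533 and 0.55). A domain of 3000 bases lay within Car1 (0.328 and 0.275). None was listed for the beta globins or Car2. Domains of H3K36me3, a mark of transcribed bodies, were deposited as a single list and covered 95% of Car2, 2.37% of Car1 and none of the other 6 genes.

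In culture, the old HSCs held a different mix from fresh ones. Hbb-bt stood at 89.9 and 92.2 CPM in the shControl libraries and Hbb-bs at 8.59 and 8.5 CPM. Both alpha globins, Slc4a1, Car1 and Ermap were at or near 0 in all 6 cultured libraries. Hba-a1, Hba-a2 and Slc4a1 had 0 reads in both shControl libraries, and Car1 and Ermap at most 0.0536 CPM in any of the 6. Car2 was at 490.4 and 486 CPM. Fresh and cultured libraries were made separately, so no test was made.

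With 5 genes at or near 0 already in the cultured controls, 3 of the 8 could be tested for the hairpins. Hbb-bs was lower with both hairpins, at 5.94 and 5.44 CPM with shRNA1 and 5.27 and 6.06 CPM with shRNA2, all below both controls (-0.61, SE 0.13, 1.52-fold lower, adjusted p = 0.0188). It was the only member called, against a background of 0.324% called lower, 0.582% higher and 0.906% in either direction among 19763 genes. The value stood just beyond the limit of 1.5-fold, and the call was lost without either shControl library (adjusted p = 0.223 and 0.181) or without shRNA1 2 or shRNA2 1.

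Hbb-bt was at 53.8 and 60.5 CPM with shRNA1 and 81.3 and 77.8 CPM with shRNA2. All 4 values lay below the controls, but the hairpins parted, and both together gave -0.43 (SE 0.21, adjusted p = 0.447). With shRNA1 alone against the controls it was called (-0.7, adjusted p = 2.65e-10), and with shRNA2 alone the change was -0.2 (adjusted p = 0.0346), below the fold limit. The summed beta copies gave -0.44 (SE 0.19, adjusted p = 0.379). Car2 was at 401 and 420.3 CPM with shRNA1, below the controls, and at 553 and 544 CPM with shRNA2, above them, and both together gave -0.04 (SE 0.19, adjusted p = 0.954). In the same libraries the iron exporter gene Slc40a1 (1.28) and the membrane gene Epb42 (1.57) rose and the transferrin receptor Tfrc fell (-0.74), and no gene was called in the heme synthesis, late red cell, erythroid factor or carbonic anhydrase lists.

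After transplantation the shControl libraries already differed several-fold from each other. Hbb-bs was at 3.35 and 22.5 CPM in shControl 1 and 2, at 45.5 and 3.11 CPM with shRNA1 and at 53.2 and 6.45 CPM with shRNA2. One library of each group held much and the other little. Hba-a1 followed the same libraries, at 0.617 and 9.2 CPM, then 21.2 and 0.738, then 33.5 and 1.09. Hba-a2 was at 0.285 and 5.69, 12.3 and 0.369, and 19.0 and 0.363 CPM in that order. Hbb-bt was at 16.3 and 29.4, 68.1 and 14.5, and 48.4 and 58.0 CPM.

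Against this spread no member was called in edgeR, nor did any have an unadjusted p below 0.05. Over the 20350 genes tested, 0.0% were called, and 1.43% and 0.811% passed an unadjusted p of 0.05 and the fold limit in the higher and lower direction, while DESeq2 called 31 genes, among them no member. The log2 differences were 1.06 for Hbb-bs (SE 1.55, adjusted p = 0.97), 1.04 for Hbb-bt (SE 0.65), 1.53 for Hba-a1 (SE 2.06) and 1.43 for Hba-a2 (SE 2.13). Summed copies gave 1.05 for the beta pair (SE 0.89, adjusted p = 0.946) and 1.49 for the alpha pair (SE 2.12, adjusted p = 0.968). Car1 gave 1.39 (SE 1.0), Ermap 2.61 (SE 2.05) and Slc4a1 2.14 (SE 1.57), from libraries at no more than 4.31 CPM of any of these 3. Car2 was at 1262 and 1666, 1210.3 and 893, and 1443 and 1422 CPM (-0.24, SE 0.2).

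Markers of other cells also varied between these libraries, and their part in the globin values was not tested. The summed granulocyte markers were 390.2 and 189 CPM in the shControl libraries, 956 and 352 with shRNA1 and 227 and 615 with shRNA2. Ngp was at 29.1 and 1.17, 159 and 52.3, and 4.24 and 157 CPM in the same order. The summed macrophage markers reached 62.4 CPM in shRNA2 1, the library with the most globin, against at most 26.8 in the others. The erythroid genes Klf1 (5.98 CPM) and Kel (3.13 CPM) were also read in shRNA2 1. In shRNA1 1, where the 4 adult globins summed to 147 CPM against 154 CPM in shRNA2 1, Klf1 was at 2.25 CPM and Kel at 0.0 CPM. Alas2 was at 1.21 and 2.42, 3.66 and 0.869, and 2.4 and 1.06 CPM. Without the 2 libraries of most granulocyte RNA, a setting chosen after seeing the data, still 0 members were called.

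The difference with the hairpins was then compared between transplanted and cultured HSCs by an interaction term. No member differed at an adjusted p below 0.05, against 0.21% of 21443 genes. The difference of the log2 changes was 1.67 for Hbb-bs (SE 1.58, adjusted p = 0.845), 1.47 for Hbb-bt (SE 0.74, adjusted p = 0.639) and -0.2 for Car2 (SE 0.31, adjusted p = 0.917). The summed beta copies gave 1.49 (SE 0.92, adjusted p = 0.728). For the genes at or near 0 in culture no interpretable value could be given.

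**Figure D4:**
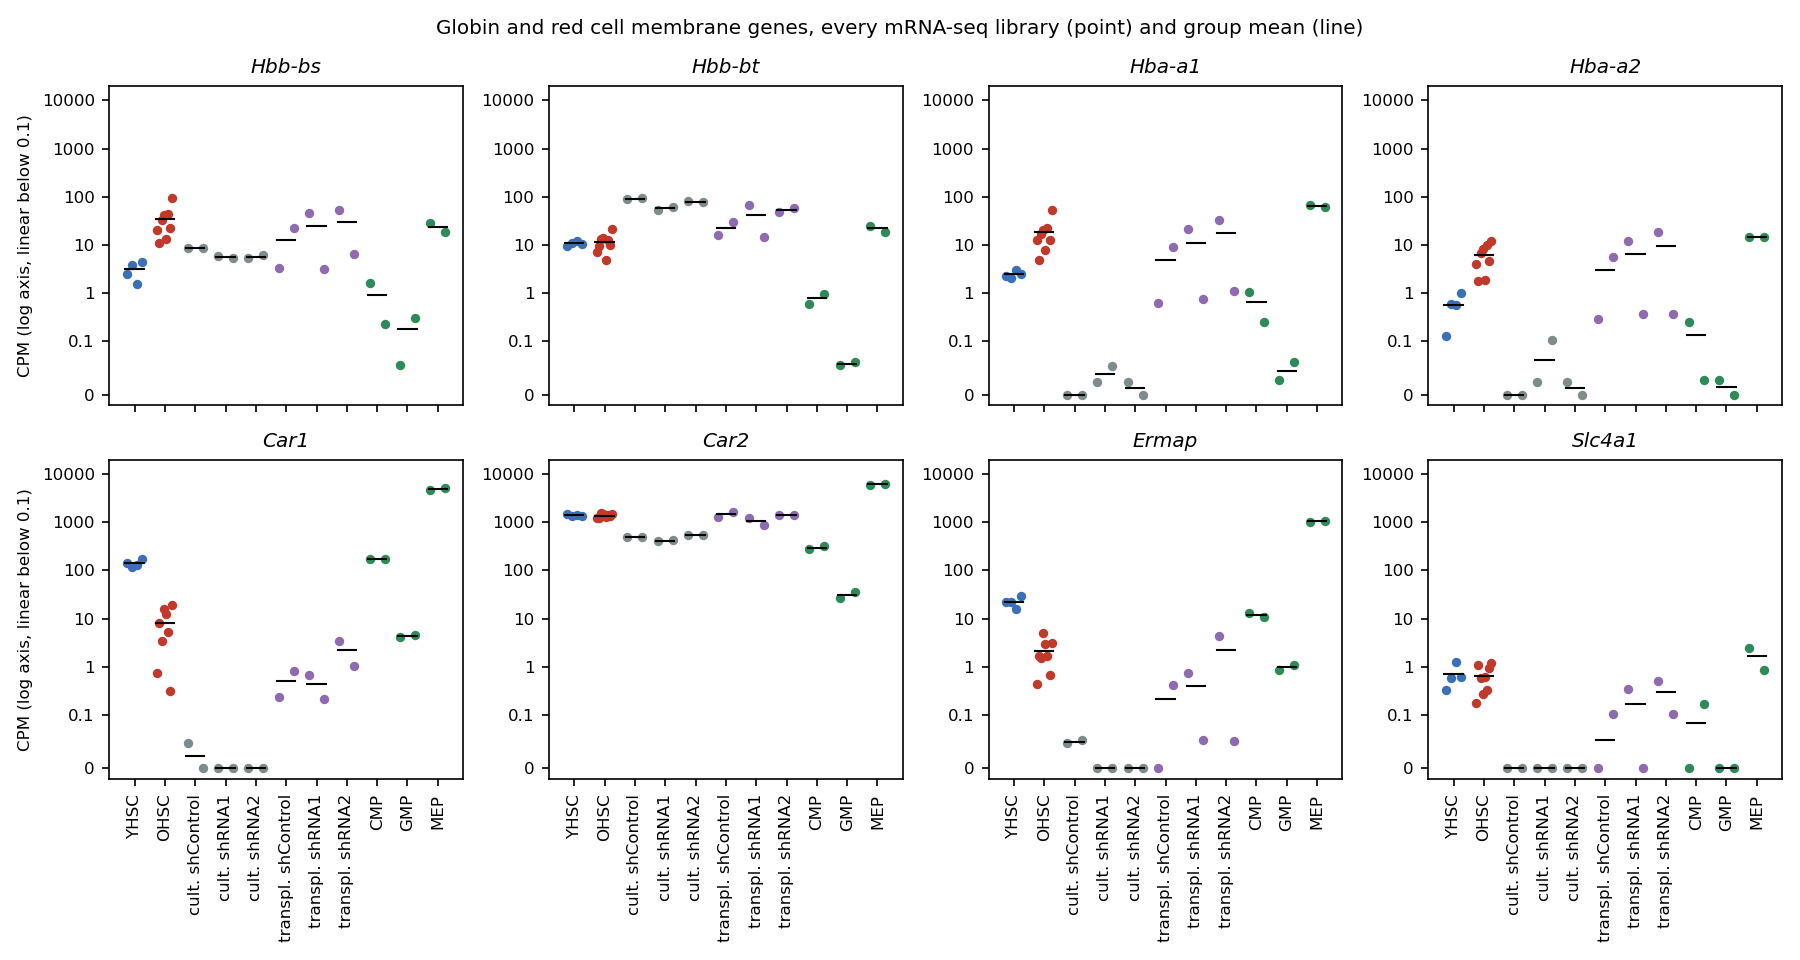
CPM of the 8 genes in each of the 30 mRNA-seq libraries (points) with the group mean (line), on a log axis that is linear below 0.1. OHSC libraries hold more Hbb-bs (10.8 to 95.2 CPM) and less Car1 (0.316 to 18.9 CPM) than YHSC libraries, and MEP libraries hold the most Car1 and Ermap.

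In the progenitors all 8 genes were highest in MEP, the population that gives rise to red cells and megakaryocytes. Hba-a1 was at 68.3 and 62.8 CPM in MEP, against 1.07 and 0.252 in CMP and at most 0.0603 in GMP. Hbb-bs was at 28.0 and 18.9 CPM in MEP, 1.64 and 0.224 in CMP and at most 0.301 in GMP. Hbb-bt was at 25.2 and 18.8, 0.603 and 0.953, and at most 0.0603 CPM. Hba-a2 was at 14.6 and 14.9, 0.247 and 0.028, and at most 0.0282 CPM. The beta copies were level in MEP, with an Hbb-bs share of 50.1% and 52.6%.

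Car1 was at 4807 and 5273 CPM in MEP, 173 and 172 in CMP and 4.11 and 4.64 in GMP. Car2 was at 6021 and 6202, 277 and 322, and 26.9 and 35.0 CPM. Ermap was at 1021 and 1081, 13.4 and 10.7, and 0.845 and 1.09 CPM. Slc4a1 stayed low even in MEP, at 2.42 and 0.849 CPM. Per length (RPKM, CPM divided by exon length in kilobases), Car1 averaged 4038 and Car2 2523 in MEP, against 80.7 for Hba-a1, 30.6 for Hbb-bs and 0.334 for Slc4a1.

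All 8 were called higher in MEP than in CMP, where 17.5% of 18234 genes were. The log2 fold changes were 4.75 for Hbb-bs (SE 0.77, adjusted p = 0.00572), 4.94 for Hbb-bt, 6.73 for Hba-a1 and 6.81 for Hba-a2. Summed copies gave 4.84 for the beta pair (SE 0.31, adjusted p = 1.04e-06) and 6.75 for the alpha pair (SE 0.37, adjusted p = 3.53e-06). Car1 was 4.98 higher (SE 0.06, adjusted p = 1.21e-15), Car2 4.47, Ermap 6.56 (SE 0.09, adjusted p = 1.1e-13) and Slc4a1 4.35 (SE 0.96, adjusted p = 0.00226). Leaving out MEP 1 ended the Slc4a1 call, as did DESeq2 (adjusted p = 0.169). Over all the alternatives tried, the log2 fold change ran from 3.35 to 8.83 for Slc4a1 and from 3.92 to 6.79 for Hbb-bs. Against GMP all 8 were higher too, where 16.6% of genes were, and the summed pairs gave 7.48 for beta and 10.25 for alpha. GMP held so few reads that some ratios are given by counts, with intervals that cover counting error only. Hba-a1 had 4646 reads in MEP and 3 in GMP, a ratio of 1501 (95% interval 513 to 7282), and Slc4a1 had 116 and 0 reads, at least 37.5-fold higher at a floor of 3 reads over the group. These contrasts share their MEP libraries.

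Between GMP and CMP, 5 of the 8 were lower in GMP, where 10.5% of genes were. They were Hbb-bt (-3.45), Hba-a1 (-3.61), Car1 (-5.09), Car2 (-3.06) and Ermap (-3.43). Hbb-bs (-2.19, adjusted p = 0.311), Hba-a2 (-2.78, adjusted p = 0.105) and Slc4a1 (adjusted p = 0.203) did not pass as single genes. With copies summed, both pairs were called lower in GMP, with log2 fold changes of -2.64 for the beta pair (SE 0.57, adjusted p = 0.0067) and -3.49 for the alpha pair (SE 1.07, adjusted p = 0.0452). The count of calls ran from 4 to 7 when 1 library was left out. Hba-a1 lost its call without either GMP library, and without CMP 2 Hbb-bs was at -3 and Hba-a2 at -3.6. Over all the alternatives tried, the log2 fold change ran from -3.77 to -0.14 for Hbb-bs and from -5.24 to -0.62 for Hba-a2.

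Of the red cell lists in MEP against CMP, 8 of 9 heme synthesis genes rose and 1 fell, led by Cpox (4.21), Alas2 (3) and Fech (3). Of 18 membrane genes 16 rose, among them Rhd (8.8), Epb42 (7.59) and Rhag (7.47), and of 10 iron genes 8 rose and 1 fell, the heme oxygenase gene Hmox1 (-4.94). Of 13 erythroid factors 8 rose and 2 fell, with Klf1 (3.57), Epor (3.42) and Gfi1b (2.89) leading. Of 15 late red cell genes 10 rose, and of 7 other carbonic anhydrases tested 1 rose and 3 fell, among them Car12 (-8.12).

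Markers of other cells also differed between MEP and CMP, and their part in the red cell values was not tested. Of all 18234 genes tested, 8514 were called in MEP against CMP, 37.5% of these higher in MEP and the rest lower. All 7 tested megakaryocyte genes were lower in MEP, with Ppbp (-8.79), Itgb3 (-7.8) and Pf4 (-7.29) leading, and their summed level was 32.1 and 33.7 CPM in MEP against 644 and 645 in CMP. Of 9 granulocyte genes 7 were lower, with sums of 23.3 and 57.0 CPM against 15951 and 19198. All 9 tested HSC markers (539 and 593 against 1023 and 1043 CPM) and all 7 macrophage genes (median sum 14.4 against 208 CPM) were lower too. Of 3 tested B cell genes 1 was higher and 1 lower, with sums of 1.13 and 3.32 CPM against 36.4 and 38.5.

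Side by side and with no test, the group means per length put Hbb-bs at 45.8 RPKM in OHSC, 30.6 in MEP and 4.03 in YHSC. The OHSC libraries (10.8 to 95.2 CPM) lay on both sides of the MEP libraries (18.9 and 28.0 CPM). For the summed beta copies the median was 39.3 CPM in OHSC and 45.5 CPM in MEP, again with overlapping ranges. Hba-a1 was at 23.3 in OHSC, 80.7 in MEP and 3.02 in YHSC. Car1 went the other way, at 6.5 in OHSC, 113 in YHSC, 138 in CMP and 4038 in MEP. Ermap was at 0.406, 4.25, 2.28 and 198 in the same order.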

How the data were processed

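The authors aligned mRNA-seq reads to mm10 with STAR and counted them on GENCODE genes with featureCounts, and deposited raw counts per gene. The deposited ATAC-seq table held raw read counts per merged region, made from MACS2 peaks. The deposited histone tables held signal per peak normalized to 10 M reads. Gene names of the counts, positions of regions and peaks, and peak annotations were used as the authors gave them. Gene positions came from a GENCODE annotation, and the windows around the genes were drawn from them. There were 8 columns of per-sample values that could not be tied to a labelled sample, and they were not used. Counts were tested with edgeR 4.0.16 (TMM, filterByExpr, robust quasi-likelihood, Benjamini-Hochberg over all genes), with DESeq2 1.42.0 and limma 3.58.1 as alternatives. ATAC regions needed more than 1.5 CPM in at least 4 libraries. SE is the absolute log2 fold change over the square root of F. The 92 spike-in rows were left out of library sizes. The depth limits precision: a gene with few reads has a wide interval. P-values measure the spread between these samples, which for shRNA libraries may be technical in part. No pair of replicates was a copy of another (43 pairs, 0 identical). Sequences were RefSeq, GRCm38.p6. Scripts were tested on simulated data. The named genes are the 8 members, up to 3 called genes per list with the largest change (some are not reported here; or 2 with the highest level where none was called), embryonic globins, the 5 genes most like each pattern, and Btaf1. Kel, Klf1 and Alas2 in single libraries were chosen after their values were seen. Members and lists were chosen with earlier results of these data known. Groups came from the labels. Figures were drawn with matplotlib 3.10.9.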

Additional observations from a re-analysis of the deposited data

Results flagged for a closer look

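In 3 of 26 sets of values, each of 1 gene or region in the YHSC or OHSC libraries, 1 library lay far from the others. Chance alone marks about 1 independent set in 20, but these sets share libraries, and 2 of the 3 are the same library in 2 globin genes that varied together. Hbb-bs in OHSC 8 was at 95.2 CPM, against at most 44.1 CPM in the other OHSC libraries, and Hba-a1 in the same library was at 53.4 CPM. The region past Car2 that was called more accessible with age stood at 3.39 CPM in YHSC 4, against at most 2.43 CPM in the other young libraries. With OHSC 8 left out, all 5 age calls were kept.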

How the results depend on the processing

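Of the values under the alternatives tried, 37 changed sign, 30 lost a call, 9 gained one and 11 moved. The other 1211 kept direction and side of the threshold or, for a count of calls, stayed within 1.5 times the reported count, so such a count could still differ. Values with a sign change were mostly near 0, and the cause was not tested. With age, the number of members called was 5 under any library left out and 2 without the 4 libraries named above. Leaving out 1 library, the log2 fold change ran from -0.03 to 0.27 for Hbb-bt, from -0.02 to 0.05 for Car2 and from -0.27 to 0.39 for Slc4a1. Without those 4 libraries together Car2 was 0 and Slc4a1 0.42. In culture, a fold limit of 2 left 0 members called, and leaving out 1 library left 0 to 1. There Car2 was 0.16 with shRNA2 alone, and -0.13 to 0.04 with 1 library left out. Where this left 1 library in a group, it was assumed to vary like the others. After transplantation 0 were called under any 1 library left out, and Car1 was -0.21 with shRNA1 alone. In the comparison of hairpin effects, Hba-a1 ran from -2.57 to 1.31, Hba-a2 from -3.23 to 1.07 and Car2 from -0.39 to 0.02 with 1 library left out, the upper ends without transplanted shControl 2. The values of both alpha genes are not interpretable, since they had 0 reads in the cultured controls. Leaving out 1 library gave 7 to 8 calls in MEP against CMP, 8 to 8 in MEP against GMP and 4 to 7 in GMP against CMP, where Slc4a1 ran from -5.47 to 0. Of accessibility regions, a fold limit of 2 called 0 and leaving out 1 library 1 to 4. With 1 library left out, the log2 fold change ran from -0.16 to 0.04 in region 1, -0.12 to 0.03 in region 7, -0.07 to 0.17 in region 22, -0.22 to 0.21 in region 26, -0.05 to 0.05 in region 37, -0.17 to 0.01 in region 38, -0.08 to 0.22 in region 45 and -0.01 to 0.07 in region 49. With no level filter, region 26 was -0.01 and region 49 was 0. Over all genes, DESeq2 called 232 in place of 179 in culture, 299 in place of 45 for the difference and 31 in place of 0 after transplantation. H3K27ac by gene name had 0 calls in every setting.

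Replicate numbers are only numbers here: no same-numbered pair had a correlation of deviations over 0.1 (-0.22 to 0.04 with age). A replicate block moved calls over all genes from 1618 to 1421 with age, from 179 to 145 in culture and from 45 to 13 for the difference, and left 0 after transplantation. In the block, Hbb-bs with age missed the threshold (3.04, adjusted p = 0.0551), Car2 with age was -0.01, and after transplantation Hbb-bs was -0.24, Hba-a1 -0.81 and Hba-a2 -1.1. Library totals and the 2 to 8 libraries per group limit how small a change could pass.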

Other observations

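Among the 8 OHSC libraries alone, the globins rose and fell together. The level of Hbb-bs tracked that of Hba-a1 (Pearson r = 0.99, Spearman rho = 1.0, two-sided exact permutation p = 2.48e-05 and 4.96e-05, adjusted over 7 pairs 8.68e-05 and 0.000174), and Hba-a2 alike (r = 0.96, rho = 1.0). For Hbb-bt, r was 0.85 and rho 0.86 (adjusted p by exact permutation 0.0186 and 0.025), and for Car2 0.81 and 0.81 (0.0262 and 0.0382). Car1 gave 0.29 and 0.33, Ermap 0.35 and 0.45 and Slc4a1 -0.01 and -0.02, none past the adjusted threshold. Without OHSC 2 and OHSC 8 the r values were 0.99 for Hba-a1, 0.98 for Hba-a2, 0.94 for Hbb-bt, 0.68 for Car2, 0.24 for Car1, 0.3 for Ermap and -0.31 for Slc4a1. All these values come from the same 8 libraries and share their depth.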
